A study of Homo sapiens with 6 samples.

Results

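The genes described here encode the machinery that builds the autophagosome and fuses it with the lysosome. They were chosen by name, as 42 gene symbols, and all 42 had a row in a table of 38843 genes. They fall into 5 groups: the ULK kinase complex with 6 genes, the class III PI3-kinase complexes with 7, PI3P-binding and lipid transfer proteins with 11, the conjugation and ATG4 protease system with 11, and fusion with 7. Messenger RNA was sequenced from PC-3, an established line from a bone metastasis of a human prostate cancer, with a genotype labelled WT. The 3 control libraries came from cells labelled control, on day 3. The 3 treated libraries came from cells given 5 µM cepharanthine hydrochloride, a plant bisbenzylisoquinoline alkaloid, and were also taken on day 3. DMEM with 10% FBS was the medium in both groups, and no vehicle is named for the control. Only this line was used. Nothing in the labels separates the libraries of a group by culture, so the p-values rest on a spread between samples that may be only technical.

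In autophagy a cell encloses part of its own cytoplasm in a double membrane and delivers it to the lysosome for breakdown. The ULK kinase starts the process, a lipid kinase then marks the forming membrane with the phosphoinositide PI3P, and PI3P-binding proteins together with lipid channels and scramblases feed the membrane. A ubiquitin-like conjugation system attaches LC3 and GABARAP proteins to lipid, and SNARE proteins and tethers finally join the closed vesicle to the lysosome. Cancer cells use the pathway to recycle nutrients, and much of its control acts on the proteins rather than on the transcripts.

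Total counts lay between 52774506 and 68241156, and every member had at least 129 counts in every library. Transcripts of the mitochondrial genome took 8.75% to 12.2% of counts in the control libraries and 4.86% to 6.61% in the treated ones. A fit without these genes called the same numbers of members, 18 higher and 5 lower. The epithelial keratins KRT8 and KRT18 stood at a mean of 28.5 and 50.9 FPKM (read fragments scaled by transcript length and library size) in control cells. Of the 3 markers each of immune, endothelial and fibroblast cells, 2 per list were under 1 FPKM in both groups. The exceptions were CD68 at 24.6 and 26.1 FPKM, PECAM1 at 5.13 and 2.39 and COL1A1 at 8.54 and 5.58, in control and treated cells. Summed levels ranged from 18.8 to 28.0 FPKM in control and 23.2 to 27.9 FPKM in treated libraries for immune markers, 4.67 to 5.55 and 2.22 to 2.69 for endothelial markers, and 8.12 to 9.79 and 5.46 to 6.71 for fibroblast markers. Their part in the results was not tested. Bulk libraries cannot tell a change in the number of cells of a kind from a change of RNA per cell.

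Most of the machinery that changed rose, and the fall of ATG12 stood against it. All 42 members passed the filter on low counts and were tested. Of these, 18 rose and 5 fell with cepharanthine (edgeR quasi-likelihood test on counts, Benjamini-Hochberg adjusted p under 0.05 over all 21965 genes tested), and 19 did not pass. The share called was 54.8%, against 27.9% of all genes tested, where 14.7% were higher and 13.2% lower. Among the 13319 genes with a mean of at least 3.02 CPM, the level of the lowest member, the share called was 41%, with 22.7% higher and 18.3% lower. CPM denotes counts scaled to a common library size with TMM factors. All 3 values of a group lay beyond all 3 of the other in 34 members, or 81%, against 43.4% of all genes tested and 56% of those at or above the same level. The median log2 fold change of treated over control was 0.29 over the members and -0.02 over all genes tested. Changes were moderate in size, since WIPI1 and ATG12 were the 2 members called with an absolute log2 fold change of at least 1, which 5.71% of all genes tested reached (2.18% higher and 3.54% lower). Without overlap, 23 of the 42 members were higher in treated cells, against 21.8% of all genes tested, and 11 of the 42 were lower, a count near the 21.7% of all genes tested. The summed level of all members was 3499 ± 54.3 CPM in control and 3601 ± 8.26 CPM in treated libraries (SD, n = 3 per group).

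The split between higher and lower members depended on scaling. With FPKM rescaled to a fixed sum per library, limma called 25 members higher and 2 lower of 39 tested, against 36.7% and 7.31% of all genes. Without a filter on FPKM it called 14 and 3 of 42, against 5.57% and 3.58%. DESeq2 called 20 and 5, against 16.5% and 14.2%, and a fit with a replicate block called 17 and 5, against 11.6% and 10.4%. In GENCODE 29, 9 members share over 10% of their exonic bases with another gene, so that their counts are less certain: ATG101, BECN1, WIPI1, WDR45, ATG9A, ATG9B, ATG4D, ATG7 and SNAP29.

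**Figure D1:**
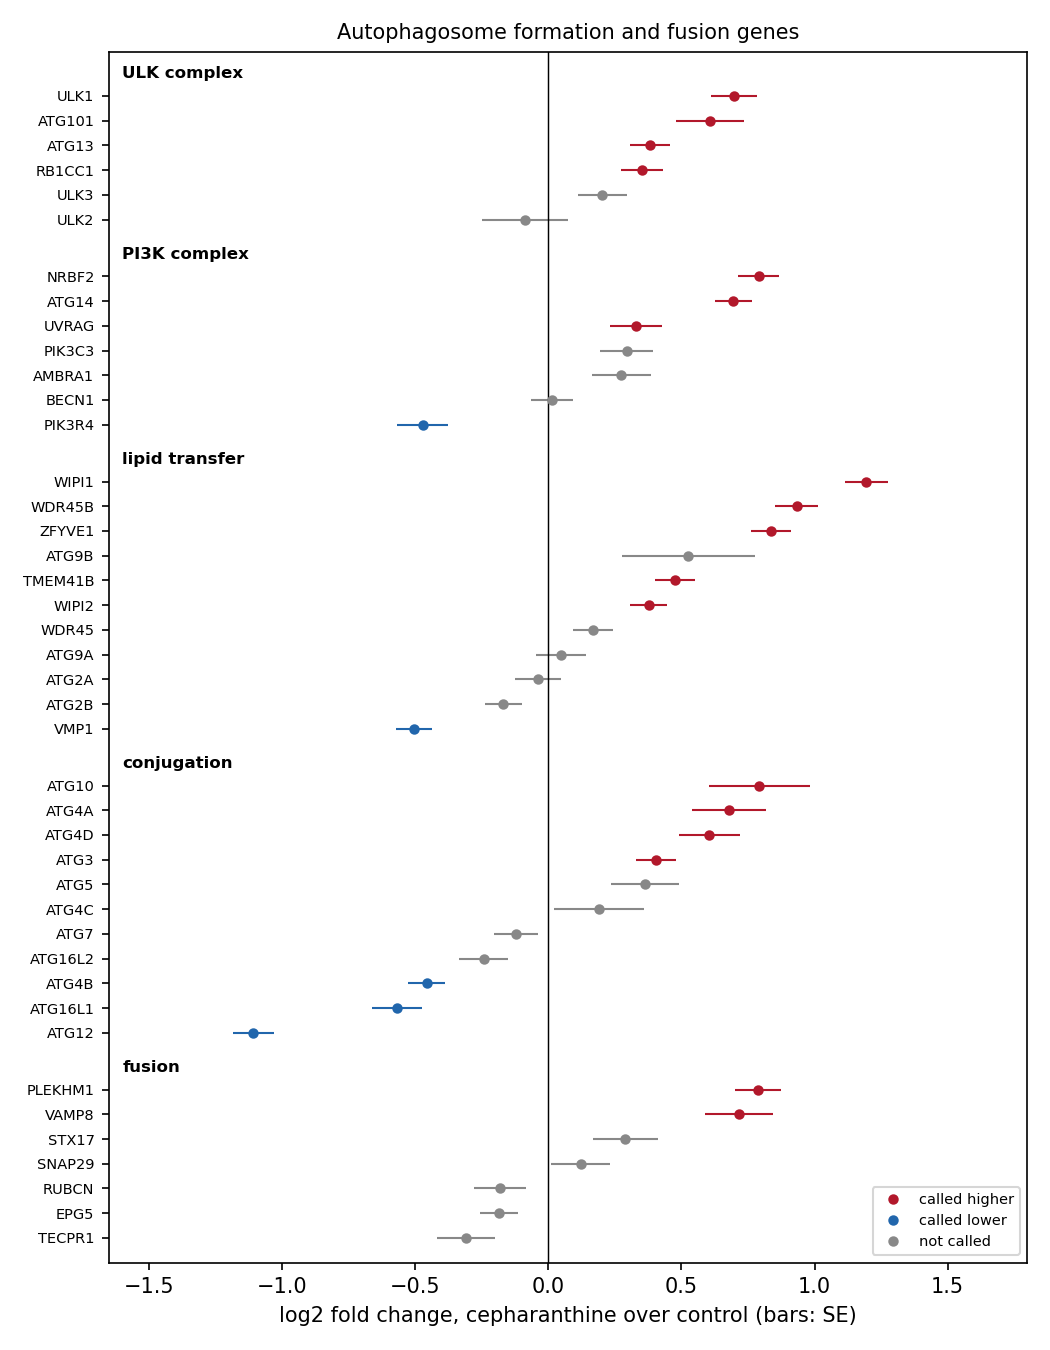
Log2 fold change of cepharanthine over control for the 42 members, in their 5 groups, with bars for the SE and colours for the edgeR call (adjusted p under 0.05, 3 libraries per group). The 18 members called higher reach 1.19 (WIPI1), and the 5 called lower are ATG12, ATG16L1, VMP1, PIK3R4 and ATG4B, with ATG12 at -1.11.

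In the ULK complex 4 of 6 members rose and 0 fell, against 14.7% higher and 13.2% lower over all genes tested and 22.7% and 18.3% over genes at or above 3.02 CPM. It is the kinase assembly that receives the signals of nutrient and energy supply, and its members had a median log2 fold change of 0.37. ULK1, the kinase itself (ENSG00000177169, chr12:131894622-131923150 in GRCh38, plus strand), stood at 168, 141 and 171 CPM in the control libraries and at 264, 253 and 261 CPM in the treated ones. Every treated value was above every control value, and the rise was 1.62-fold, a log2 fold change of 0.70 ± 0.09 (SE, edgeR adjusted p = 3.15e-04). ATG101, which stabilises the adaptor ATG13, stood at 35.6, 43.2 and 32.7 CPM in control and at 49.9, 54.2 and 65.9 CPM in treated cells. Its groups did not overlap either, and cepharanthine replicate 3 was the highest (log2 fold change 0.61 ± 0.13, edgeR adjusted p = 0.00629). Without a filter on FPKM its call was lost (0.61, limma adjusted p = 0.0807). In GENCODE 29, 19.2% of the exonic bases of ATG101 overlap an antisense gene, which limits this value. ATG13, which binds the kinase to its partners, and RB1CC1 (FIP200), the large scaffold, rose by smaller amounts, with log2 fold changes of 0.38 ± 0.08 and 0.35 ± 0.08. Both other kinases of the family missed the threshold. ULK2, the closest relative of ULK1, was at 11.1 ± 1.09 CPM in control and 10.5 ± 1.88 CPM in treated cells, and its groups overlapped. ULK3, a more distant kinase also known from Hedgehog signalling, had a log2 fold change of 0.20 ± 0.09 (edgeR adjusted p = 0.138).

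In the PI3-kinase complexes NRBF2, ATG14 and UVRAG rose and PIK3R4 fell, so that 3 of 7 members were called higher and 1 lower, against the same 22.7% and 18.3% of genes at or above 3.02 CPM. The core holds the lipid kinase PIK3C3 (VPS34), its pseudokinase partner PIK3R4 (VPS15) and BECN1 (Beclin 1). NRBF2, which binds and organises the ATG14-containing complex, stood at 60.0, 57.4 and 51.8 CPM in control and 97.2, 96.1 and 99.5 CPM in treated libraries. The groups were far apart, with a log2 fold change of 0.79 ± 0.08 (edgeR adjusted p = 7.74e-05). ATG14, which targets the kinase to the site of autophagosome formation, rose from 86.4, 87.2 and 91.1 CPM to 142, 137 and 149 CPM. Its rise was 1.62-fold and its groups did not overlap (log2 fold change 0.70 ± 0.07, edgeR adjusted p = 9.64e-05). UVRAG, which takes the place of ATG14 in the endosomal form of the complex, rose by a log2 fold change of 0.33 ± 0.10 (edgeR adjusted p = 0.031). The UVRAG call was lost without control replicate 3 (edgeR adjusted p = 0.109), cepharanthine replicate 2 (0.114) or cepharanthine replicate 3 (0.0815), at log2 fold changes of 0.25, 0.29 and 0.31. PIK3R4 fell, from 31.0, 35.0 and 31.0 CPM to 24.6, 21.7 and 23.7 CPM, without overlap (log2 fold change -0.47 ± 0.10, edgeR adjusted p = 0.0051). Its call was lost in limma on rescaled FPKM (-0.22, limma adjusted p = 0.215) and without a filter on FPKM (-0.34, limma adjusted p = 0.0982). BECN1 was at 39.4 ± 2.13 CPM in control and 39.8 ± 0.888 CPM in treated cells, a log2 fold change of 0.01 ± 0.08. PIK3C3 just missed the threshold (0.29 ± 0.10, edgeR adjusted p = 0.0501), and its groups did not overlap. It passed without control replicate 2, in DESeq2 and in limma on rescaled FPKM. AMBRA1, a Beclin 1-binding adaptor of ubiquitin ligases, also missed the threshold (0.27 ± 0.11, edgeR adjusted p = 0.0943). It passed without control replicate 1 and in limma on rescaled FPKM.

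Promoter sequence was searched for the E-box CACGTG, for TCACGTGA, the core of the element that binds the MiT/TFE factors of lysosomal and autophagy genes, and for TGATGNAAN, the element of ATF4 with C/EBP partners. The search covered both strands of the 250 bases before the RefSeq gene start in GRCh38.p14, and a match to TCACGTGA is also a match to CACGTG. Of 36 members with an entry, 5 held CACGTG (13.9%, against 6.34% of 35116 promoters), 1 held TCACGTGA (2.78% against 0.854%) and 0 held TGATGNAAN (3.13% of all promoters). The 35116 promoters were not matched to the members for gene type, expression or base composition, so the shares are not of like sets. Among the 14 members that rose and had an entry, 3 held CACGTG, and the sequences of these 3 are shown 5′ to 3′ on the strand of the gene, with the matched letters in capitals. The other 2 matches were in ULK3 and SNAP29, which were not called, and 0 of the 5 members that fell held one. For VMP1, ATG4B and ATG16L1, which fell, the searched window lay wholly inside the gene by its deposited coordinates. The same held for ATG101, ZFYVE1 and VAMP8, which rose, and for BECN1, AMBRA1 and ATG5, which were not called. For these members the search did not cover sequence upstream of the deposited gene start. The NRBF2 sequence (chr10:63133078-63133246, plus strand) ends where the gene starts in the deposited table, the ATG14 sequence is chr14:55411831-55412080 on the minus strand, and the ATG3 sequence is chr3:112561963-112562212 on the minus strand.
NRBF2: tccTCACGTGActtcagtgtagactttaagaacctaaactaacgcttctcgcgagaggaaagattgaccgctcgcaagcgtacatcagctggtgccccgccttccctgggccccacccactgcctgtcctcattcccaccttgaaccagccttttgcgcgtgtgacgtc
ATG14: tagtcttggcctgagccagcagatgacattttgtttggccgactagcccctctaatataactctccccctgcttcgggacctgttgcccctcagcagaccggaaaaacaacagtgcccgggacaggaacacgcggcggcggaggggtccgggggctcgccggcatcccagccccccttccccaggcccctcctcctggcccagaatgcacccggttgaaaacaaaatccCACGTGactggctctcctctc
ATG3: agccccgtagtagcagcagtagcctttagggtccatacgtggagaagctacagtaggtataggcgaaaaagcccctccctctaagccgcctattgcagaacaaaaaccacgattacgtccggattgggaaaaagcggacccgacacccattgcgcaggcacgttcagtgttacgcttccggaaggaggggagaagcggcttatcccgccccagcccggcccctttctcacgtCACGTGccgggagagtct
In NRBF2 the TCACGTGA match began 247 bases before the RefSeq start, whereas the CACGTG of ATG14 and ATG3 began 21 and 18 bases before it. WIPI1 and ATG12, the members with the largest rise and fall, had none of the 3 motifs in this window, which says only that these letters are not there. A match is a description of the sequence and not evidence of binding.

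Among the PI3P-binding and lipid transfer proteins, 4 of the 5 PI3P readers rose while ATG2A and ATG2B did not pass the test. Of these 11 members 5 were called higher and 1 lower, against 22.7% and 18.3% of genes at or above 3.02 CPM. WIPI1, a PI3P-binding propeller protein (ENSG00000070540, chr17:68420948-68457499, GRCh38, minus strand), had the largest rise of the 42 members. It stood at 43.0, 38.5 and 42.3 CPM in control and 97.4, 98.7 and 87.2 CPM in treated libraries, a 2.29-fold rise without overlap (log2 fold change 1.19 ± 0.08, edgeR adjusted p = 1.3e-05). In GENCODE 29, 28.1% of its exonic bases are also exonic in genes on the opposite strand, mainly ARSG, and the use of strand in counting is not given. ARSG itself was at 6.10 ± 0.180 CPM in control and 5.32 ± 0.927 CPM in treated cells and was not called. WDR45B (WIPI3), a propeller of the same family, rose from 101, 108 and 111 CPM to 195, 192 and 222 CPM. That was a 1.91-fold rise, again without overlap (0.93 ± 0.08, edgeR adjusted p = 4.19e-05). ZFYVE1 (DFCP1), which marks the PI3P-rich cradle on the endoplasmic reticulum, rose from 146, 145 and 141 CPM to 246, 246 and 281 CPM. The control values were close together and the treated values were all higher (0.84 ± 0.08, edgeR adjusted p = 5.36e-05). WIPI2, which recruits ATG16L1, rose by 0.38 ± 0.07 on the log2 scale, and WDR45 (WIPI4), the partner of ATG2, missed the threshold (0.17 ± 0.07, edgeR adjusted p = 0.128).

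ATG2A and ATG2B, the bridges that carry lipid from the endoplasmic reticulum, had log2 fold changes of -0.04 ± 0.09 and -0.17 ± 0.07, and ATG9A, the scramblase of the forming membrane, had 0.05 ± 0.09, and none of the 3 was called. ATG9A shares 38.8% of its exonic bases with a same-strand gene, so its counts are uncertain. ATG9B was the lowest member of all, at 2.47 ± 0.306 CPM in control and 3.56 ± 0.961 CPM in treated cells, and was not called. The scramblases of the endoplasmic reticulum moved in opposite directions. TMEM41B rose by 0.48 ± 0.08, from 113 ± 3.94 to 158 ± 10.5 CPM (edgeR adjusted p = 0.0013). VMP1, which works beside it (ENSG00000062716, chr17:59707192-59842255, plus strand), fell from 477, 468 and 503 CPM to 348, 345 and 328 CPM. All treated VMP1 values lay below all control values (log2 fold change -0.50 ± 0.07, edgeR adjusted p = 5.17e-04). The hairpin of the microRNA MIR21 covers 1.04% of the exonic bases of VMP1 on the same strand, where reads of the 2 genes cannot be told apart. PTRH2 overlaps 2.34% of these bases on the opposite strand and was called lower too (log2 fold change -0.22 ± 0.07, edgeR adjusted p = 0.0493).

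**Figure D2:**
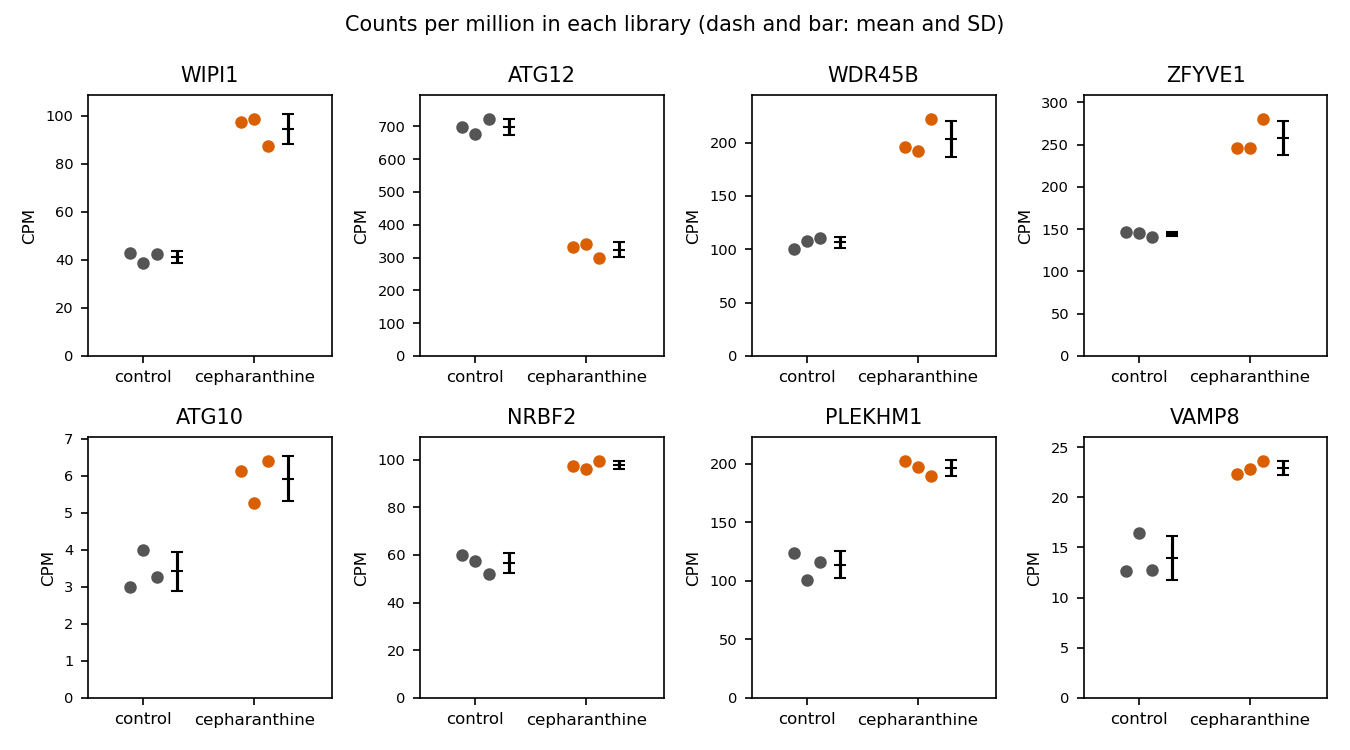
CPM in each of the 6 libraries for the 8 called members with the largest absolute log2 fold changes, on axes that start at 0, with the mean and SD of 3 libraries beside the points. In each panel the treated points lie apart from the control points, above them in 7 genes and below them in ATG12, which goes from 699 to 324 CPM.

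The conjugation system split. Of its 11 members 4 were called higher and 3 lower, against the same 22.7% and 18.3%. The 3 that fell were those with the highest FPKM of the group in control cells. ATG12, the ubiquitin-like protein that is joined to ATG5 (ENSG00000145782, chr5:115828200-115841565, minus strand), stood at 698, 675 and 723 CPM in control and at 333, 342 and 298 CPM in treated libraries. It was 2.16-fold lower, without overlap (log2 fold change -1.11 ± 0.08, edgeR adjusted p = 1.31e-05). AP3S1, which overlaps 4.25% of its exonic bases on the opposite strand, was at means of 129 and 124 CPM and was not called. ATG16L1, which brings the ATG12 and ATG5 conjugate to the membrane, fell from 111, 138 and 112 CPM to 79.5, 79.0 and 85.1 CPM. Control replicate 2 was the highest, and all treated values lay below the control values (-0.57 ± 0.09, edgeR adjusted p = 0.0017). Its call was lost in limma on rescaled FPKM (-0.32, limma adjusted p = 0.118) and without a filter on FPKM (-0.47, limma adjusted p = 0.0734). ATG5 itself had a log2 fold change of 0.36 ± 0.13 and missed the threshold (edgeR adjusted p = 0.0616). The relative ATG16L2 was at -0.24 ± 0.09 (edgeR adjusted p = 0.0742) and passed as lower without control replicate 1.

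The conjugating enzymes gave another pattern. ATG7, the activating enzyme for both ubiquitin-like systems, had a log2 fold change of -0.12 ± 0.08 and was not called, and 18.1% of its exonic bases overlap VGLL4 on the opposite strand, which rose. ATG3, which transfers LC3 and GABARAP proteins to lipid, rose from 47.3, 48.6 and 46.2 CPM to 66.9, 60.8 and 60.5 CPM (0.41 ± 0.07, edgeR adjusted p = 0.00302). ATG10, which transfers ATG12, rose from 3.00, 4.0 and 3.26 CPM to 6.12, 5.26 and 6.41 CPM. Its groups did not overlap (0.79 ± 0.19, edgeR adjusted p = 0.0114), its call was lost without a filter on FPKM (0.36, limma adjusted p = 0.107), and it had the lowest FPKM of the group. In GENCODE 29, 6.86% of the exonic bases of ATG10 overlap the ribosomal protein gene RPS23 on the opposite strand. The ATG4 proteases trim LC3 and GABARAP proteins before conjugation and release them afterwards. ATG4B, the main protease, fell from 191, 195 and 199 CPM to 144, 148 and 134 CPM (-0.46 ± 0.07, edgeR adjusted p = 0.00111). In limma on rescaled FPKM the call of ATG4B was lost at a log2 fold change of -0.22 (limma adjusted p = 0.0951). ATG4A rose from 15.7, 14.8 and 15.3 CPM to 21.0, 22.5 and 29.7 CPM, with cepharanthine replicate 3 the highest (0.68 ± 0.14, edgeR adjusted p = 0.00522). The ATG4A call was lost without a filter on FPKM (0.61, limma adjusted p = 0.0511). ATG4D rose as well (0.61 ± 0.12), with 15% of its exonic bases shared with KRI1 on the opposite strand, which fell, while ATG4C was at 0.19 ± 0.17 and its groups overlapped. The summed level of the group was 1197 ± 23.6 CPM in control and 761 ± 18.4 CPM in treated cells, without overlap (exact two-sided permutation p = 0.1, the smallest that 3 against 3 libraries allow). ATG12 made up 58.4% ± 1.73 of that sum in control and 42.6% ± 2.03 in treated cells (SD, n = 3 per group). Without ATG12 the sum was 499 ± 23.6 CPM in control and 437 ± 4.72 CPM in treated cells.

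Of the 7 fusion genes 2 were called higher and 0 lower, a share of 28.6%, which is close to the 27.9% of all genes tested and below the 41% of genes at or above 3.02 CPM. VAMP8, the SNARE on the lysosomal side, stood at 12.6, 16.4 and 12.7 CPM in control and 22.3, 22.8 and 23.6 CPM in treated libraries. The treated values were close together and all above control (0.72 ± 0.13, edgeR adjusted p = 0.00251). PLEKHM1, an adaptor that links RAB7 and the HOPS tether to LC3, rose from 124, 101 and 116 CPM to 203, 197 and 189 CPM (0.79 ± 0.09, edgeR adjusted p = 1.59e-04). Its copy PLEKHM1P1 held counts of its own, at 139 ± 7.44 CPM in control and 159 ± 37.2 CPM in treated cells, so the split of reads between the 2 genes makes this value uncertain. The partners of VAMP8 in the fusion complex missed the threshold. STX17, the SNARE on the autophagosome, was at 0.29 ± 0.12 (edgeR adjusted p = 0.11) and the bridging SNAP29 at 0.12 ± 0.11 (edgeR adjusted p = 0.464). EPG5, a tether, had a log2 fold change of -0.18 ± 0.07, TECPR1, which binds the ATG12 and ATG5 conjugate, -0.31 ± 0.11, and RUBCN (Rubicon), an inhibitor of the UVRAG complex, -0.18 ± 0.10. Their adjusted p in edgeR were 0.0833, 0.0603 and 0.201. In all 3 every treated value lay below every control value, and in STX17 every treated value lay above. Groups were apart in this way, in either direction, in 43.4% of all genes tested and 56% of those at or above 3.02 CPM.

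Levels per transcript length ranged from 0.325 to 67.3 FPKM among the members in control cells, with a median of 5.74 FPKM. ATG12 was the most abundant in each of the 3 control libraries, at 66.4, 68.1 and 67.5 FPKM, followed by VMP1 at 58.7, 61.1 and 60.7 FPKM. In treated libraries ATG12 was at 33.7, 32.6 and 31.0 FPKM and ranked 5, 5 and 7 of 42, and WDR45B ranked 1 in each, with a mean of 51.1 ± 6.12 FPKM. NRBF2 at 45.6 ± 2.74, VMP1 at 44.1 ± 1.44 and ZFYVE1 at 43.9 ± 5.06 FPKM came next in treated cells and did not differ beyond their spread. ATG9A, ATG4B, WDR45B and NRBF2 lay between 25.1 and 28.0 FPKM in control cells. In each group the most abundant control transcript was ULK1 at 17.9 ± 1.23, NRBF2 at 25.4 ± 2.47, VMP1 at 60.2 ± 1.31, ATG12 at 67.3 ± 0.867 and VAMP8 at 13.4 ± 2.64 FPKM. ULK2, ATG10 and ATG9B were the 3 lowest, at 0.963, 0.529 and 0.325 FPKM in control cells.

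**Figure D3:**
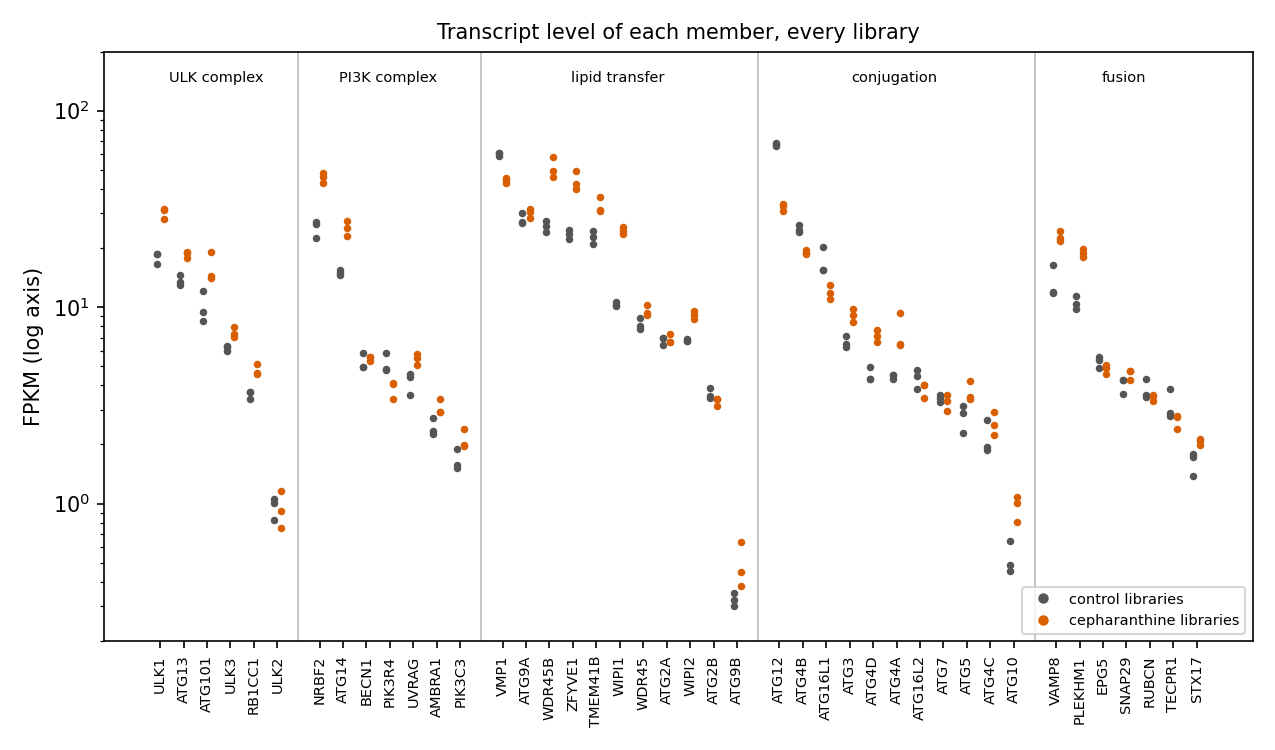
FPKM of the 42 members in every library on a log axis, sorted within each group by the control mean, with control and treated libraries in different colours. ATG12 and VMP1 are highest in control, at 67.3 and 60.2 FPKM, and WDR45B at 51.1 FPKM is highest in treated cells.

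A comparison of related genes was made within each library as a ratio of FPKM, which does not depend on library scaling. Of 9 pairs chosen by name, 7 had ratios that did not overlap between groups. A share over other gene pairs was not computed, so this count has no background of its own. For single genes, CPM values did not overlap in 56% of those at or above 3.02 CPM and in 81% of the members. With 3 against 3 libraries the exact two-sided permutation p cannot go below 0.1, which these 7 pairs reached (0.129 adjusted over the 9 pairs), so none can pass a threshold of 0.05. The ratio of ATG4A to ATG4B moved most, from 0.186, 0.172 and 0.174 in control to 0.329, 0.345 and 0.503 in treated libraries, a log2 difference of 1.12. The ratio of WIPI1 to WIPI2 went from 1.56, 1.51 and 1.53 to 2.81, 2.81 and 2.48, and that of ULK1 to ULK2 from 18.5, 15.6 and 22.5 to 34.0, 37.2 and 27.1. WDR45 was at 0.335, 0.324 and 0.299 of the level of WDR45B in control and at 0.185, 0.204 and 0.176 in treated cells. Smaller log2 differences were found for ATG9A to ATG9B (-0.45), ATG4C to ATG4D (-0.41) and ATG16L1 to ATG16L2 (-0.32). The bridges ATG2A and ATG2B kept overlapping ratios (log2 difference 0.13, exact permutation p = 0.3). So did ATG14 and UVRAG, which take each other's place in complexes of the same kinase (0.36, exact permutation p = 0.2).

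**Figure D4:**
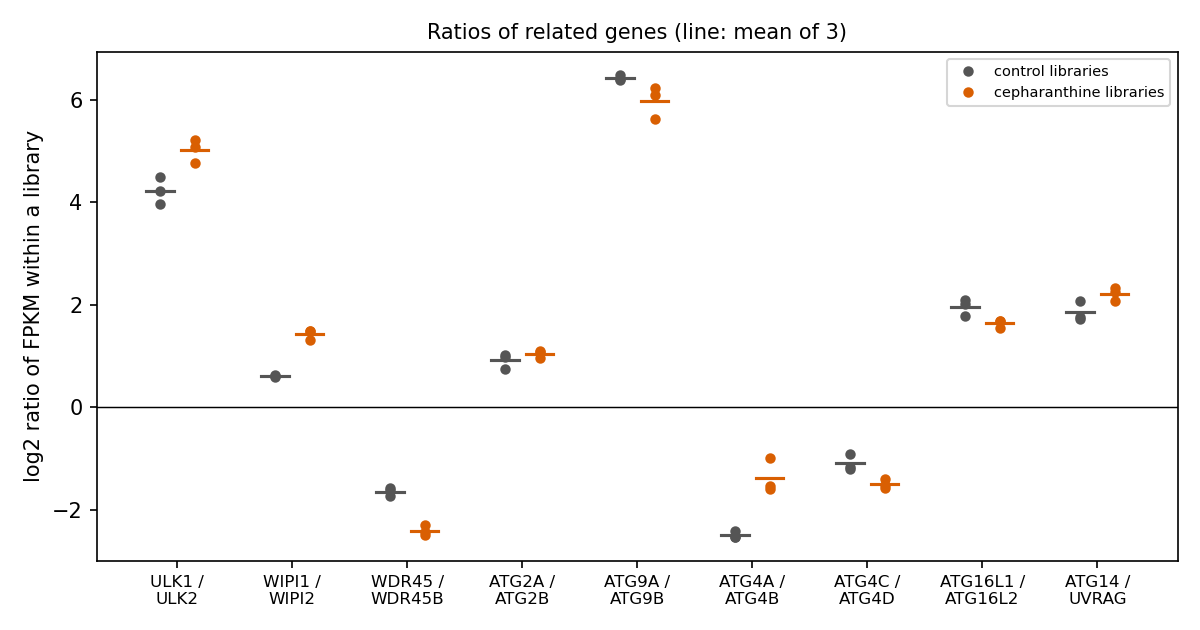
Log2 ratio of FPKM between related genes in each library, with a line at the mean of 3 control or 3 treated libraries. The 3 treated points lie apart from the 3 control points in 7 of the 9 pairs, with the widest shift, 1.12, for ATG4A to ATG4B. They overlap for ATG2A to ATG2B and ATG14 to UVRAG. A share over other gene pairs was not computed.

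Of 41 genes that work with this machinery, in 4 lists, 39 were tested, 23 were called higher and 1 lower. The share called was 61.5%, against 14.7% higher and 13.2% lower over all genes tested, and 22.7% and 18.3% over genes at or above 3.02 CPM, and the same shares stand behind the counts of each list. In the ATG8 family, the LC3 and GABARAP proteins that are conjugated to the membrane, 4 of 6 tested genes rose and 0 fell. MAP1LC3B rose from 102, 99.9 and 97.5 CPM to 219, 215 and 249 CPM (1.19 ± 0.08), GABARAPL1 from 24.0 ± 2.02 to 43.8 ± 3.79 CPM (0.87 ± 0.10) and GABARAPL2 from 31.9 ± 3.78 to 53.5 ± 6.74 CPM (0.75 ± 0.12). MAP1LC3B2, a near-identical copy that may share reads with MAP1LC3B, was at 2.87 ± 1.31 and 3.73 ± 0.544 CPM and was not called. GABARAP, also called higher, shares 30.5% of its exonic bases on the same strand and 25.2% on the opposite strand, so its counts are uncertain. Of 12 cargo receptors, which tie cargo to LC3, 7 rose and 0 fell, led by SQSTM1 (1.44 ± 0.07), OPTN (1.40 ± 0.07) and CCPG1 (0.89 ± 0.09). SQSTM1 shares 22% of its exonic bases with genes on the opposite strand, and CCPG1 shares 38.9% with a same-strand readthrough gene. Of 13 genes of the HOPS tether, RAB7 and lysosomal SNAREs 10 rose and 0 fell. Of those that rose, VPS33A shares 21.5% of its exonic bases with a same-strand gene. VTI1B, which also rose, shares 5.6% on the same strand and 15.6% on the opposite strand. The RAB7 effector RILP was at 0.74 ± 0.17 and the SNARE STX7 at 0.59 ± 0.12, both called. YKT6, an autophagosomal SNARE that can act in place of STX17, rose from 103, 114 and 106 CPM to 151, 145 and 170 CPM (0.52 ± 0.08, edgeR adjusted p = 0.00127).

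The list of PI3P phosphatases and other regulators of the PI3-kinase step was mixed. Of its 8 tested genes 2 were called higher and 1 lower, counts near the shares over all genes. The PI3P phosphatases MTMR3 and MTMR14 rose (0.77 ± 0.10 and 0.51 ± 0.11). MTMR3 shares 65.3% of its exonic bases with genes on the opposite strand, so its counts are uncertain. BCL2L1, whose product BCL-XL binds Beclin 1, fell from 580, 498 and 533 CPM to 301, 313 and 242 CPM (-0.91 ± 0.11, edgeR adjusted p = 2.08e-04), and 43% of its exonic bases overlap an antisense gene. MAP1LC3C and the kinase DAPK1 did not pass the filter on low counts.

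**Figure D5:**
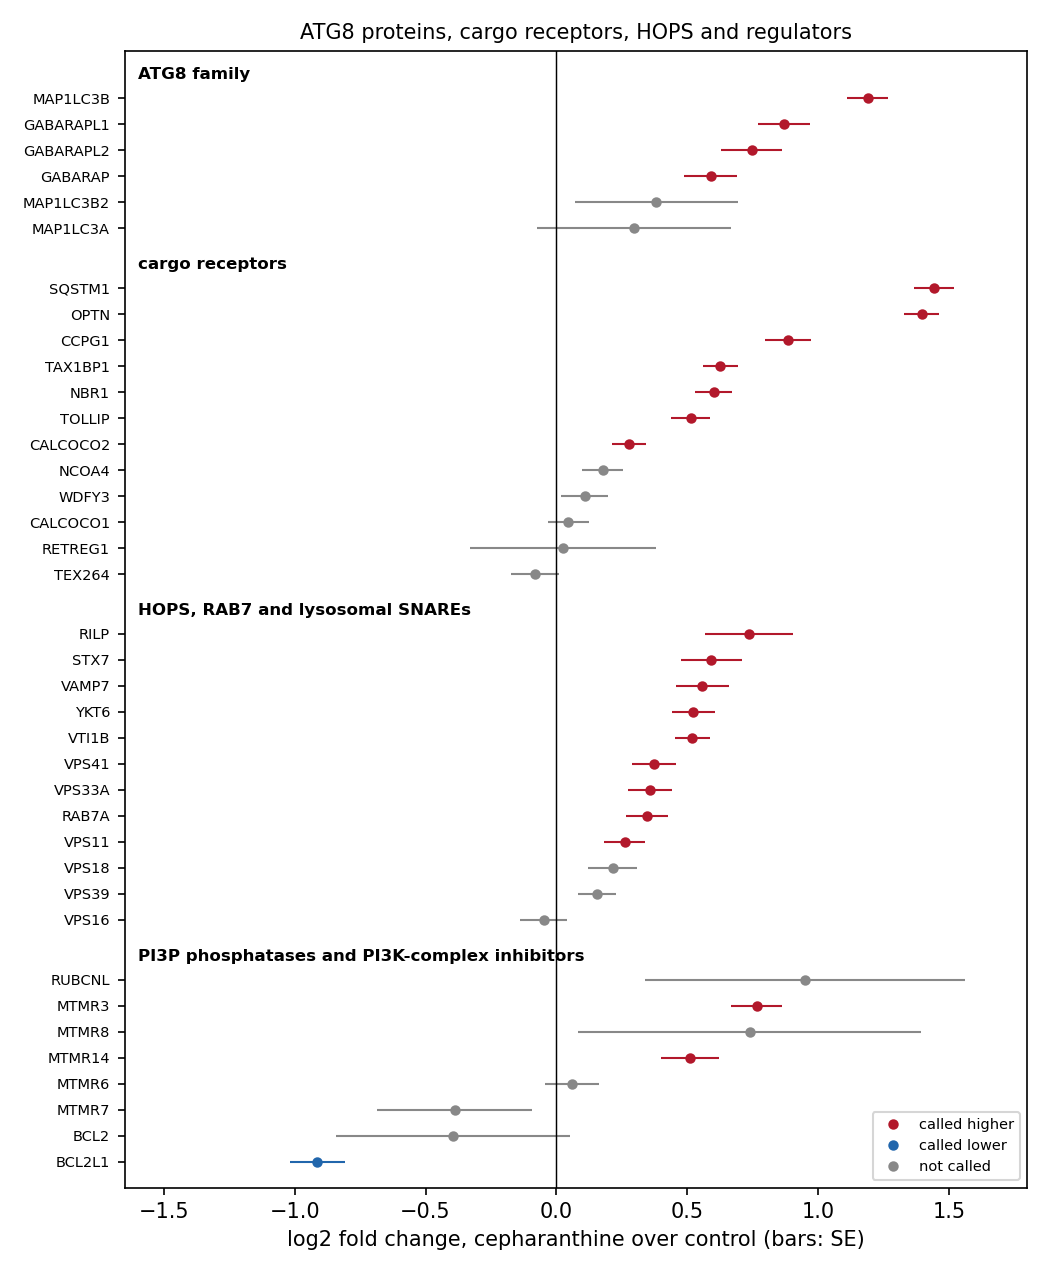
Log2 fold change of cepharanthine over control for tested genes of 4 lists that work with the machinery, 1 of the 39 not being drawn, with bars for the SE and colours for the edgeR call. The genes called higher are spread over all 4 lists up to SQSTM1 at 1.44, and BCL2L1 at -0.91 is the one called lower.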

How the data were processed

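Per the labels, messenger RNA was sequenced from 3 control and 3 treated PC-3 libraries, with SMARTER kit libraries from TRIzol RNA. Per the file headers, the authors deposited raw read counts and FPKM for each gene. Aligner, counting tool, use of strand and gene lengths are not stated by those sources, so they are not given in what was used here. The submitters' processing notes name GRCm38, mm10 and hg38 without roles. The control columns have names of their own, and each was paired with the control label of the same number.

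Counts were filtered with filterByExpr, given TMM factors and put through glmQLFit and glmQLFTest of edgeR 4.0.16 under R 4.3.3, two-sided, with Benjamini-Hochberg adjustment over 21965 genes and a threshold of 0.05. The SE is the absolute log2 fold change divided by the square root of F. Means and SDs are over 3 libraries. FPKM served levels and ratios. Overlaps were counted on GENCODE 29 (GRCh38), and promoters came from RefSeq. Alternatives were DESeq2 1.42.0, RLE factors, no filter, a replicate block, no mitochondrial genes, each library left out, and limma 3.58.1 on log2(FPKM + 1) or log2(FPKM + 0.1) with other filters and scalings. The edgeR, DESeq2 and limma tests were checked on simulated counts, with changes planted in a small part of the genes. The scaling of FPKM and the permutation test were not simulated.

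Members, lists and tests were chosen with earlier results of these data known. Values in every library were given for the 8 called members with the largest changes, the most abundant of each group, pairs called in opposite directions and the genes with the largest change in 2 of the 4 lists of other pathway genes (MAP1LC3B and BCL2L1), of which up to 3 a list were named. ATG101, ATG14, PIK3R4, ATG16L1, ATG3 and YKT6 were added after their values were seen. The overlap checks, the copy PLEKHM1P1 and the share called at matched expression were also chosen after seeing the data. GABARAP, VPS33A and VTI1B were named only for their overlaps. Some listed genes are counted but not reported here.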

Additional observations from a re-analysis of the deposited data

How the results depend on the processing

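Of the 23 calls among the members, 16 kept their direction and stayed under an adjusted p of 0.05 in every setting that gave a value, 14 higher and 2 lower, the latter ATG12 and VMP1. None of the 23 changed direction in any setting. Members called numbered 20 higher and 5 lower in DESeq2, and leaving out each library in turn gave 17 to 19 higher and 5 to 6 lower, with a median log2 fold change of 0.25 to 0.33. Without members sharing over 10% of their exonic bases with another gene, an alternative chosen after seeing the data, 15 higher and 5 lower of 33 remained called.

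The scaling of FPKM mattered most. After rescaling of FPKM to a fixed sum, 25 of 39 members tested were higher and 2 lower with a median of 0.47. The median of all genes moved to 0.26 in that scaling, and all genes called became 4931 higher and 983 lower. PIK3R4, ATG4B and ATG16L1 lost their calls there, and 8 members gained a call as higher: ULK3, PIK3C3, AMBRA1, WDR45, ATG9A, ATG5, STX17 and SNAP29. ULK3 was also called higher in limma on filtered log2(FPKM + 1) and log2(FPKM + 0.1) without rescaling, and PIK3C3 and ATG5 in DESeq2. Limma on log2(FPKM + 1) gave a median of 0.23 and 1897 genes lower, log2(FPKM + 0.1) 1883 genes lower, and median-ratio scaling a median of 0.19. Without a filter limma called 2077 genes higher and 1333 lower and 3 members lower, with a median of 0.23. ATG101, PIK3R4, UVRAG, ATG4A, ATG10 and ATG16L1 lost their calls in that fit. The cause was not tested.

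The replicate block gave 17 members higher and 5 lower, UVRAG being lost (adjusted p = 0.0674 in edgeR), and 4838 of all genes called against 6121. Deviations of same-numbered libraries correlated at 0.03, -0.03 and -0.13. Whether same-numbered libraries shared a culture or a batch is not given in the labels and was not tested. Not every library correlated best with its own number.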
